A study of Homo sapiens with 42 samples.

Results

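The genes described here encode enzymes that metabolize drugs, other foreign compounds, alcohols, aldehydes and steroids. They were chosen by the letters of their symbols, among probes that name 1 gene in the array annotation: cytochromes P450 (CYP followed by a digit), UGT1 and UGT2, the cytosolic and membrane glutathione S-transferases, SULT, ALDH, ADH, AKR1 and FMO, together with POR, NAT1 and NAT2. Where a gene had several probes, the one with the highest mean log2 value stood for it. The rule found 65 genes on 103 probes, of 5631 genes named by such a probe. One of the 65, FMOD, encodes fibromodulin, a collagen-binding proteoglycan, and matched FMO by its letters only. CYP2B7P is a transcribed pseudogene. The remaining genes comprised 17 of CYP1 to CYP4, 4 other CYP genes, POR, 5 ADH, 12 ALDH, 3 AKR1, FMO5, 3 UGT, 4 SULT, 12 glutathione transferases and 2 NAT genes.

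Messenger RNA was measured on 42 arrays of Hep3B, a line of cells from a human hepatoma, with no transgene or knockout named in the labels. Cultures received CM, described in the labels as rich in pro-inflammatory cytokines, or NCM, its control, at 7 culture times: T0, then 15 and 30 min, then 1, 3, 6 and 16 h. Both cultures of a pair came from the same cell batch, and 3 independent experiments were run, so each of the 14 groups has 3 arrays and each time has 3 pairs. The question in the labels is how transcript abundance moved over time in CM against NCM. Every change below is CM minus NCM on the log2 scale, from quantile-normalized intensities, with its SE from a limma model that has 1 term per pair. A gene passed the test at a Benjamini-Hochberg adjusted p under 0.05 over all 13824 probes. Since Hep3B is 1 cell line, the pairs measure the spread between cultures of that line.

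Such enzymes act in sequence in the hepatocyte. Cytochromes P450, which take electrons from the reductase POR, and the alcohol, aldehyde and ketone oxidoreductases add or uncover a reactive group on a lipophilic compound. Transferases then attach glucuronic acid, sulfate, glutathione or an acetyl group, which makes the product easier to excrete. The same reactions build bile acids and inactivate steroid hormones. Pro-inflammatory cytokines are known to lower many of the P450 transcripts in primary hepatocytes, and hepatoma lines are known to hold little of several of them.

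Array means were scaled to between 0.999 and 1.00 and array medians lay between 0.354 and 0.807, and precision depends on how many arrays there are. Of 10 listed hepatocyte markers 9 were measured, and ALB, AFP and TF were above the array's median on 42 of 42 arrays, as was SERPINA1. AHSG was above it on 41 arrays, TTR and APOA1 on 40, FGB on 34 and APOB on 27. Of the markers of other cells, DCN (fibroblasts) was above it on 41 arrays and CD14 (monocytes) on 35, and the others on 1 to 30. The summed linear intensity of these 9 markers was 17.8 to 26.6 in CM and 19.0 to 26.3 in NCM. Of markers of other cells, 4 of 7 monocyte genes summed to 1.64 to 3.06 in CM and 1.85 to 3.13 in NCM, 4 of 5 fibroblast genes to 1.84 to 4.02 and 2.16 to 3.76, and 2 of 3 endothelial genes to 0.609 to 1.06 and 0.549 to 1.42. No detection call was given with the intensities, so none of these can be called absent, and their part in any result was not tested.

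The upstream sequences of 2 UGT2B genes are shown here, since UGT2B7 had the largest change of any member and its relative on chromosome 4, UGT2B10, had one near 0 at the same time. That change of UGT2B7 did not pass the test. It is that of the brightest of 3 probes, which the others did not follow, as given below. Both enzymes attach glucuronic acid to drugs, and UGT2B7 also to steroids. The 250 bases before each start are from RefSeq, build GRCh38.p14, plus strand, at chr4:69096224-69096473 for UGT2B7 and chr4:68815744-68815993 for UGT2B10. Capitals mark the single match to the C/EBP motif TTNNGCAA, read on either strand.

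UGT2B7: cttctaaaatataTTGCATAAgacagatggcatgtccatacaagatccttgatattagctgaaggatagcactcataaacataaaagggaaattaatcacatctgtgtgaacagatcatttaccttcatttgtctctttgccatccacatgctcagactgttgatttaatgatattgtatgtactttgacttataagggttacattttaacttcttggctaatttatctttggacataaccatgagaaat

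UGT2B10: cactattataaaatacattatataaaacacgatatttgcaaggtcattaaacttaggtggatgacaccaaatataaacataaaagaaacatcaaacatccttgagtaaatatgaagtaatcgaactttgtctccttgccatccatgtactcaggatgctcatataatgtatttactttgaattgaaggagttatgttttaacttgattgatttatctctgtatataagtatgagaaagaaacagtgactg

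The pair was identical at 177 of 274 alignment columns (64.6%). The C/EBP motif occurred before UGT2B7 and not before UGT2B10 within these letters, and neither held the STAT motif TTCNNNGAA. Before UGT2B10 but not UGT2B7 there were 3 matches to TATAAA, the TATA box, and 1 to TGACNNNGC, the antioxidant response motif. Over the members, 63 promoters of 52 genes were at hand. On either strand, and counting overlaps between motifs, 15.9% of these held the C/EBP motif against 9.1% of 35114 promoters of all genes, and 6.3% against 6.6% held the STAT motif. The short motif GTTAAT, bound by the liver-enriched factor HNF1, was in 14.3% against 6.2%, the TATA box TATAAA in 30.2% against 10.7% and the core GCGTG of the aryl hydrocarbon receptor site in 17.5% against 32.2%. The NF-kappaB motif was in 11.1% against 10%, and the antioxidant response motif TGACNNNGC in 12.7% against 10.9%. These are matches of letters, not sites of binding.

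None of the 65 genes passed the test at any of the 7 times. The smallest adjusted p of a member, by limma, was 0.942 at 16 h and between 0.972 and 1.00 at the other times. Over all 13824 probes the percentage called was 0% at T0 to 6 h and 0.00723% at 16 h, where 1 probe was called, so few genes of any kind passed. In the late mean, taken over the changes at 3, 6 and 16 h, 0 members were called beside 0.0434% of probes, and the smallest adjusted p of a member was 0.651. No member was called in the change at a later time minus that at T0, or in any of the 21 differences between times. Without adjustment, 19 of the 455 values of members over the times had p under 0.05 (4.18%), in 18 genes. Fitting with an intensity trend and robust spread also called 0 members.

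The changes were small. Of the 455 values, 424 (93.2%) were under 0.5 in size and 1 was over 1, that of UGT2B7 at 16 h. From the change to either end of its 95% interval the median distance was 0.536 at a single time and 0.310 in the mean of the late times. At 3 h the interval lay within a log2 change of 1 either way, a 2-fold change, for 58 members, at 15 min for 51 and at 16 h for 49. For the other 16 members at 16 h a 2-fold change in at least 1 direction was within the interval. In the late mean only 3 of 65 reached that bound.

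**Figure D1:**
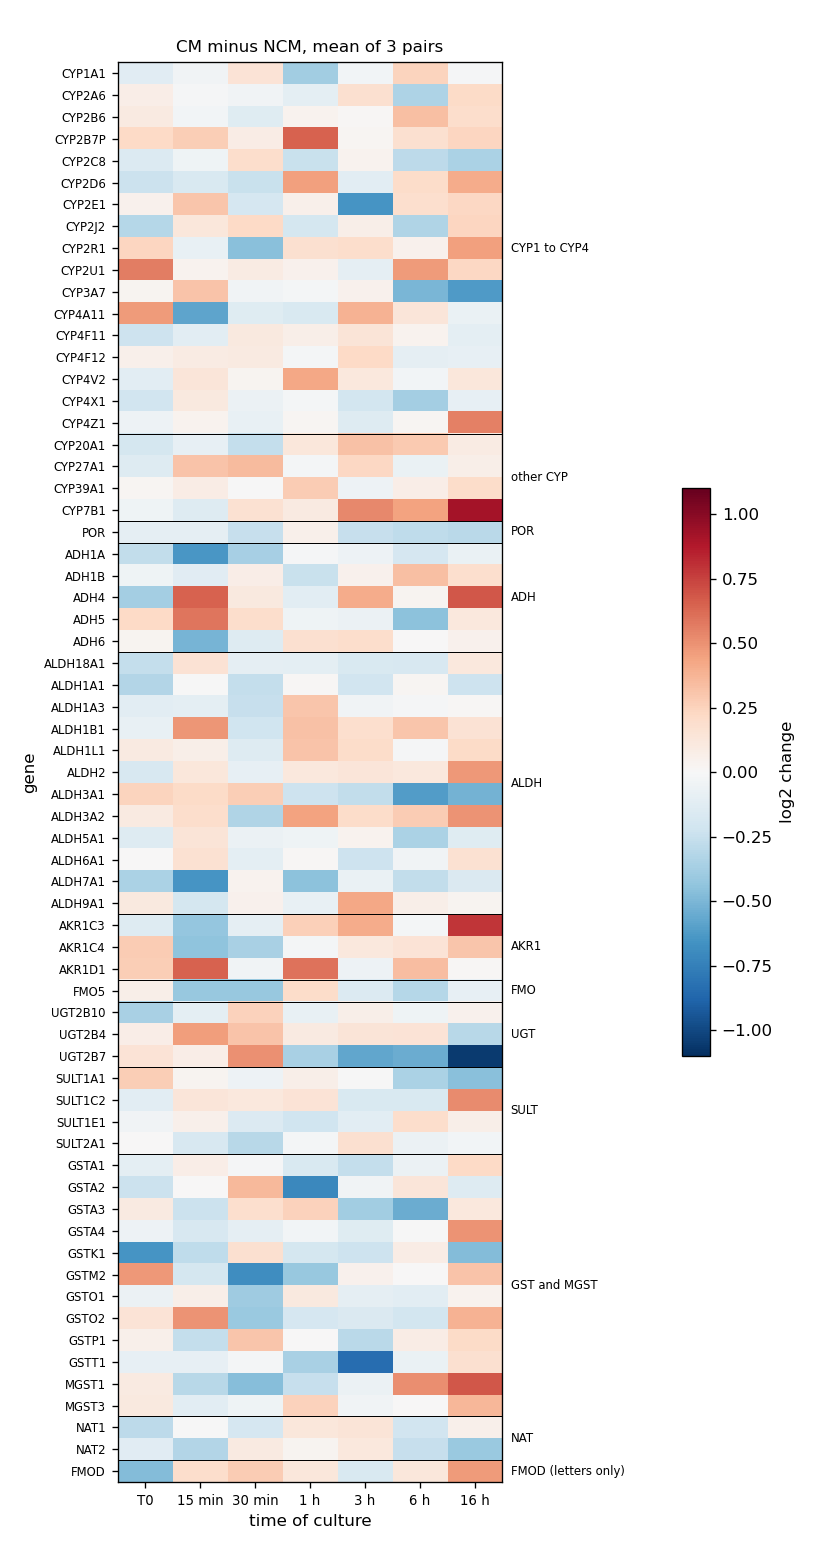
Colour map of the log2 change, CM minus NCM, of the 65 genes (rows, by family) at the 7 times (columns), each cell the mean of 3 pairs. Most cells are pale, the darkest are UGT2B7 at 16 h (-1.06) and CYP7B1 at 16 h (0.91), and no cell passed the test.

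The median change over the members lay between -0.05 and 0.01 from T0 to 6 h and was 0.12 at 16 h, against 0.02 over all genes. At 16 h 44 of 65 members were above 0 (67.7%), as were 53.0% of all genes. This lean depended on the scaling. On the values as deposited the members' median at 16 h was -0.04 with 31 of 65 above 0 while that of all genes was -0.08, with each array centred on its median it was 0.04 with 35 above 0, and with neighbouring probes centred it was 0.05 with 38 above 0. The scaling moved the median of all genes by over 0.1 at 16 h on the deposited values, and members exceeded the all-gene median by 0.10 under quantile normalization and by 0.04 under each of the other scalings.

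At 16 h the CM culture was higher in 3 of 3 pairs for 13 members and lower in 3 of 3 for 3, where 14.6% and 12.6% of all genes did so. At T0, the starting time, 1 was higher and 6 were lower in 3 of 3, against 9.57% and 10% of genes. The counts higher and lower were 7 and 7 at 15 min (10.8% and 10.2% of genes), 4 and 9 at 30 min (8.13% and 13.2%) and 9 and 7 at 1 h (14.7% and 12.8%). They were 6 and 8 at 3 h (13.5% and 12.6%) and 9 and 12 at 6 h (12.8% and 12.6%), and in 8 or more of the 9 late pairs 3 and 0 (2.82% and 2.52%). Unadjusted p was under 0.05 for 6 members higher and 1 lower at 16 h (2.89% and 1.79% of all genes), for 3 and 2 at 15 min (1.97% and 1.23%) and for 0 and 1 at T0 (2.31% and 3.14%). At 30 min it was 0 and 1 (2.2% and 1.97%), at 1 h 1 and 1 (2.34% and 2.1%), at 3 h 0 and 2 (1.7% and 1.63%) and at 6 h 0 and 1 (1.69% and 1.67%). In the late mean it was 4 and 1 (3.16% and 2.22%).

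The 3 arrays of CM all lay above or all below those of NCM for few members. At 16 h CM lay above for ADH4, AKR1C3, CYP2D6 and GSTA4 and below for CYP2C8, GSTK1 and NAT2, against 3.3% and 2.89% of all genes. At 15 min it lay above for ADH4, ADH5 and ALDH1B1 (2.34%), and for none below (1.76%). At 1 h it lay above for ALDH3A2 and CYP4V2 (2.63%) and below for GSTA2, GSTT1 and SULT1E1 (2.65%). Single genes did so at 30 min (GSTM2, below, 1.74%, with 1.19% above), 3 h (ALDH1L1, above, 2.61%, with 2.54% below) and 6 h (NAT2, below, 2.65%, with 2.22% above), and none did at T0 (1.39% above and 1.44% below). ADH4 stood apart in that way at 15 min and 16 h in the same direction, and NAT2 at 6 h and 16 h. The share of all genes that did so at 2 times was not counted, so these cases cannot be set against a background.

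**Figure D2:**
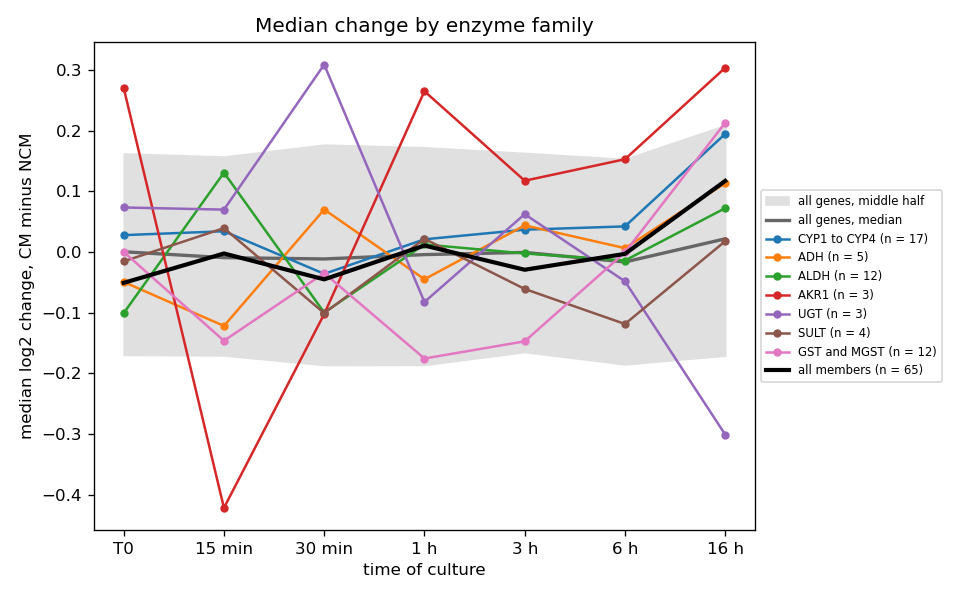
Median log2 change, CM minus NCM, of each family with 3 genes or more other than the 4 other CYP genes, at the 7 times, with the median (grey line) and interquartile range (grey band) of all genes and the median of the 65 members (black). The members' line stays near 0 until 6 h and reads 0.12 at 16 h, and the families furthest out, AKR1 and UGT, hold 3 genes each.

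Among the 17 genes of CYP1 to CYP4, the families that oxidize drugs, carcinogens and fatty acids, none passed the test and the median change ranged from -0.04 to 0.04 before 16 h. At 16 h the median was 0.20 with 10 of 17 above 0, and on the deposited values it was -0.07 with 7 above 0. CYP3A7, the fetal form of the main drug-oxidizing P450, had log2 intensities of -1.03, -0.02 and 0.20 in CM and 0.39, 0.48 and 0.15 in NCM at 16 h in experiments 1 to 3. The groups overlapped, and the CM culture of experiment 1 was the lowest by far. The change was -0.62 (SE 0.27, a fold of 0.65, adjusted p = 0.942), and the other probes of CYP3A7 read -0.20 and 0.14. In the mean of the late times CYP3A7 was at -0.36 (SE 0.15, adjusted p = 0.825), lower in 5 of 9 pairs. Without replicate 1 at 16 h, its value was -0.22.

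CYP2E1, which oxidizes ethanol and small solvents, read -2.53, -1.17 and -0.88 in CM and -1.12, -0.85 and -0.66 in NCM at 3 h. It was lower in 3 of 3 pairs, mostly in experiment 1, with a change of -0.65 (SE 0.26, adjusted p = 1.00). Its 2 other probes gave -0.05 and -0.13 at 3 h, and at 16 h the brightest probe was at 0.23. CYP2B7P, the pseudogene related to CYP2B6, read 0.70, 1.91 and 0.56 in CM and -0.60, 1.55 and 0.26 in NCM at 1 h. That change was 0.65 (SE 0.24, adjusted p = 0.977), higher in 3 of 3 pairs with overlapping groups.

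CYP2B6 itself, an enzyme of drug oxidation under control of the receptor NR1I3, was higher in CM in 3 of 3 pairs at 6 h (change 0.33, SE 0.18, adjusted p = 0.999) and in 8 of 9 late pairs (change 0.18, SE 0.10, adjusted p = 0.827). Its level at 16 h was 1.57 to 1.91 in CM and 1.22 to 1.76 in NCM, and its other probe read -0.43 there against 0.20. CYP2R1, a hydroxylase of vitamin D, was lower in 3 of 3 pairs at 30 min (-0.46, SE 0.23, adjusted p = 0.997) and higher in 8 of 9 late pairs (0.23, SE 0.13, adjusted p = 0.827). CYP4Z1, a fatty acid hydroxylase, had 0.55 at 16 h (SE 0.26, adjusted p = 0.942) from CM values of -1.35, -1.73 and -1.23 against -2.71, -1.68 and -1.57, so that experiment 1 gave most of the difference.

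Other P450 genes of these families were not called either, and their values are at 16 h unless another time is given. CYP1A1, the classic target of the aryl hydrocarbon receptor, had -0.01 (SE 0.26) and reversed its sign with neighbour centring and when experiment 2 or 3 was left out. CYP2C8, which oxidizes several drugs and arachidonic acid, had -0.35 (SE 0.30), lower in 3 of 3 pairs, and its other probes read 0.22 and -0.42. CYP2D6, which oxidizes many basic drugs, had 0.40 (SE 0.42) and was higher in 3 of 3. The groups did not overlap for CYP2C8 (CM below, as in 2.89% of all genes) or CYP2D6 (CM above, as in 3.3%). CYP2A6, the nicotine oxidase, had -0.34 at 6 h (SE 0.21, adjusted p = 0.999), lower in 3 of 3. CYP2U1, a fatty acid hydroxylase, had its largest value, 0.56 (SE 0.32, adjusted p = 1.00), at T0, the starting time, higher in 3 of 3 pairs.

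Among the 4 other CYP genes, CYP7B1, an oxysterol hydroxylase of the alternative route to bile acids, had the largest positive change of any member. Its log2 intensities at 16 h were -2.02, 0.39 and -0.23 in CM and -3.62, -1.02 and 0.05 in NCM. CM was higher in experiments 1 and 2 and lower in experiment 3, the groups overlapped, and the NCM value of experiment 1 was the floor set for log2. The change was 0.91 (SE 0.34, a fold of 1.88, adjusted p = 0.942), with an SD of the pair differences of 1.04, and the alternatives gave 0.40 with a floor at the 10th percentile to 1.51 without replicate 3. Over the late times CYP7B1 was at 0.63 (SE 0.20, 95% interval 0.22 to 1.04, adjusted p = 0.651), higher in 7 of 9 pairs.

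The level of the CYP7B1 probe varied widely between pairs, with an SD over the 42 arrays of 1.12, the largest of any member. Its mean over times was -2.05 in the pairs numbered experiment 1, -0.31 in experiment 2 and -0.60 in experiment 3, but at T0 experiment 1 was the highest, at -0.25 and -0.48 in CM and NCM against values from -2.03 to -1.53 in the others. The labels do not say whether an experiment number marks 1 batch of cells across the times. The other 3 genes had late changes between 0.07 and 0.23. CYP27A1, the mitochondrial sterol hydroxylase, had 0.07 at 16 h (SE 0.23), and -0.15 on the deposited values. POR, the electron donor of the microsomal P450s, had -0.30 at 16 h (SE 0.35) and -0.28 over the late times (SE 0.20, adjusted p = 0.847). Its probe was the dimmest of the members and stood at the floor on 7 of 42 arrays, so it had little room to show a lower value.

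**Figure D3:**
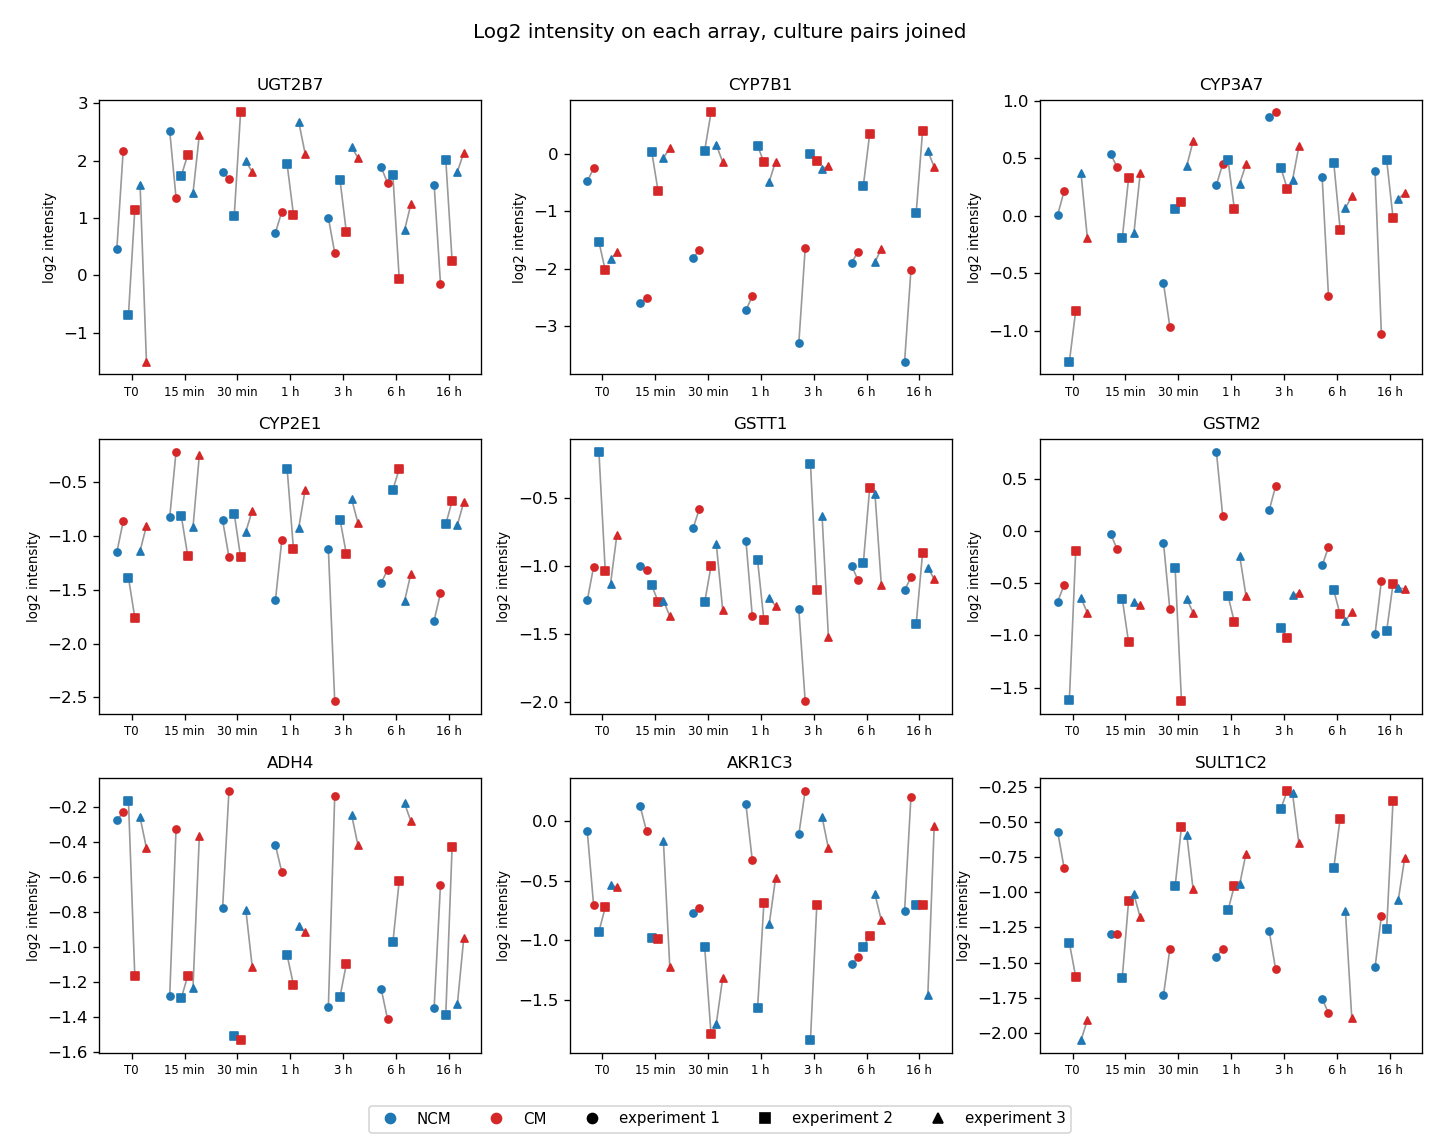
Log2 intensity (vertical axis) of 9 members on each of the 42 arrays at the 7 times (horizontal axis), NCM in blue and CM in red, with a marker shape per experiment and a line joining the cultures of a pair. The lines of most panels run up in some experiments and down in others at the same time, and CYP7B1 sits lower in experiment 1 at most times but not at T0.

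Of the alcohol dehydrogenases, ADH4, which oxidizes ethanol and retinol, was the one whose media stood apart at 2 times. How many of all genes did so was not counted. At 15 min it read -0.32, -1.17 and -0.37 in CM and -1.28, -1.29 and -1.23 in NCM. At 16 h it read -0.64, -0.43 and -0.95 in CM and -1.35, -1.39 and -1.33 in NCM. Every CM value was above every NCM value at both times, and the 3 NCM cultures lay close together.

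The changes of ADH4 were 0.65 at 15 min (SE 0.26, adjusted p = 1.00) and 0.68 at 16 h (SE 0.26, a fold of 1.60, adjusted p = 0.942), and 0.37 over the late times (SE 0.15, adjusted p = 0.825). At T0 its 6 arrays read between -1.17 and -0.16, and the change at 16 h minus that at T0 was 1.06 (SE 0.37, adjusted p = 0.986). In NCM alone its mean went from -0.23 at T0 to -1.27 at 15 min and -1.35 at 16 h. An F test of the 7 times in NCM gave an adjusted p of 1.00 for ADH4 and called 0 members and 0.0145% of probes. At an unadjusted p under 0.05 it gave 3 of 65 members beside 1.85% of genes. These were ADH4, CYP4Z1 and FMOD, which is no enzyme and had the smallest p of them. The 5 probes of ADH4 disagreed at 16 h, from -0.25 to 0.91. ADH1A, an ethanol dehydrogenase of fetal and adult liver, was lower in CM in 3 of 3 pairs at 15 min, at 0.27, -0.99 and -0.31 against 0.95, -0.42 and 0.37. Its change was -0.64 (SE 0.26, adjusted p = 1.00), the pairs agreed closely (SD 0.07), and its other probe read -0.06. ADH1B, the main ethanol dehydrogenase of adult liver, had 0.19 at 16 h (SE 0.20).

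Of the 12 aldehyde dehydrogenases, 8 were above 0 at 16 h with a median of 0.07, and 5 were on the deposited values with a median of -0.10. ALDH7A1, an enzyme of lysine breakdown, was lower in CM in 3 of 3 pairs at T0 (-0.35), 15 min (-0.65, SE 0.26, adjusted p = 1.00) and 1 h (-0.46). At 15 min the pairs differed widely, since NCM read 1.01 in experiment 1 and -0.16 and -0.49 in the other experiments, while CM read -0.68, -0.33 and -0.57. ALDH1A1, which oxidizes retinal, was lower in 3 of 3 pairs at T0 (-0.33, SE 0.23) and had -0.23 (SE 0.23) at 16 h. ALDH2, the mitochondrial enzyme that clears acetaldehyde, had 0.47 (SE 0.28, adjusted p = 0.942) at 16 h, and its probes ranged from -0.10 to 0.47. ALDH9A1, which oxidizes aminoaldehydes, was higher in 3 of 3 at 3 h (0.43, SE 0.25). ALDH3A1, which oxidizes aromatic and lipid-derived aldehydes, had -0.52 (SE 0.52) at 16 h, with CM at 0.98, 1.16 and 2.51 and NCM at 1.86, 2.48 and 1.87.

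The 3 aldo-keto reductases were all above 0 at 16 h. AKR1C3, which reduces steroid ketones and prostaglandins, read 0.20, -0.70 and -0.04 in CM and -0.75, -0.71 and -1.45 in NCM. The groups did not overlap, though in experiment 2 the cultures were nearly equal. The change was 0.79 (SE 0.31, a fold of 1.73, adjusted p = 0.942), and over the late times 0.39 (SE 0.18, adjusted p = 0.825), higher in 7 of 9 pairs. At 15 min AKR1C3 was at -0.42. Over the alternatives its value at 16 h ranged from 0.48 to 1.18. CM was higher in all 3 pairs there, so leaving out a replicate could not turn the sign. AKR1C4, a hepatic hydroxysteroid dehydrogenase, had 0.19 (SE 0.15, adjusted p = 0.868) over the late times, higher in 8 of 9 pairs. AKR1D1, the steroid beta-reductase of bile acid synthesis, had 0.65 at 15 min (SE 0.38), which came from 1 NCM array at -1.05 beside values from 1.08 to 2.33 on the other 5. FMO5, the flavin monooxygenase measured, had -0.09 (SE 0.30) at 16 h.

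Among the UDP-glucuronosyltransferases, UGT2B7, a main enzyme of morphine and steroid glucuronidation, read -0.14, 0.25 and 2.14 in CM and 1.58, 2.02 and 1.81 in NCM at 16 h. CM was lower by 1.72 and 1.76 in experiments 1 and 2 and higher by 0.33 in experiment 3. The change was -1.06 (SE 0.69, a fold of 0.481, 95% interval -2.48 to 0.37, adjusted p = 0.942). Over the late times it was -0.72 (SE 0.40, adjusted p = 0.827), lower in 7 of 9 pairs. At T0 the same probe had differences of both signs, with CM at 2.17, 1.15 and -1.51 and NCM at 0.46, -0.69 and 1.57.

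The 2 other probes of UGT2B7 did not follow the brightest. They read -0.25 (SE 0.21) and -0.16 (SE 0.24) at 16 h, and over the 42 arrays the 3 probes correlated with each other at 0.16, -0.18 and 0.18. The brightest UGT2B7 probe instead followed the ALDH3A1 probe, with a Pearson r of 0.95 over the same arrays, and its number, 12214, lies near that of ALDH3A1, 11996. Of the 383 other probes in its run of 384 numbers, 66 (17.2%) correlated with it above 0.8, and of the 13440 probes outside that run 0 did. These points share arrays, and whether numbers stand for places on the array is not given in the sources used here. With the mean of neighbouring numbers taken out, UGT2B7 at 16 h was at -0.72, and with its probes averaged at -0.49. UGT2B4, which glucuronidates bile acids, had 0.46 at 15 min (SE 0.22, adjusted p = 1.00) and -0.30 at 16 h (SE 0.22), and UGT2B10, whose sequence is shown above, had 0.05 (SE 0.37) at 16 h.

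**Figure D4:**
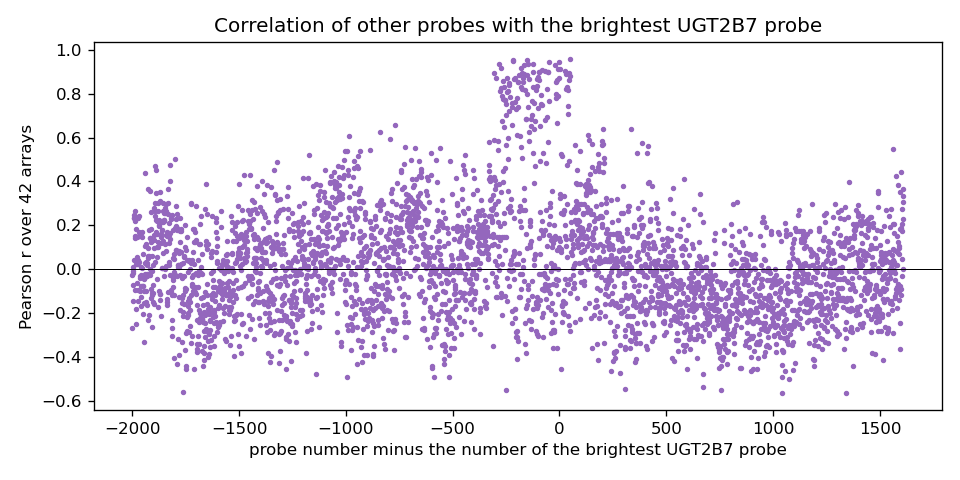
Pearson correlation over 42 arrays of other probes with the brightest UGT2B7 probe (vertical axis), by their distance in probe number (horizontal axis). The points above 0.8 all lie within 1 run of 384 numbers that holds the probe.

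The same was asked of every member. Its 10 closest probes by correlation held at least 5 from its own run of numbers for 12 of 65 members (18.5%) and for 10.8% of all genes. For UGT2B7, ALDH3A1 and CYP2A6 all 10 did. In the run of CYP2A6 also lay SULT2A1 (9 of 10), CYP2B6 (8), ALDH7A1 (6), and AKR1C4, CYP2B7P and CYP4F11 (5 each). AKR1D1, in the same run, had 0. The changes given for these genes may therefore not be independent of each other, and this was not tested. The probes closest to UGT2B7 were of IFT172 (r = 0.96), CEP162 (0.96) and CXCL6 (0.95), and the closest to ALDH3A1 was that of CXCL6 (0.97). The 3 closest to CYP7B1, of DEK (0.92), DNALI1 (0.90) and THEM6 (0.90), came from other runs. Of its 10 closest, 3 came from its own run, where an even share would be 0.277. The DEK probe lies 1152 numbers from that of CYP7B1, a whole multiple of 384. Some other members, such as CYP4A11 (1152) and AKR1D1 (1536), also had their closest probe at such a distance, and most did not. A count within a run does not cover these distances, and their share over all genes was not counted. Over the members, the SD of the 21 pair means exceeded the SD of the 21 pair differences, CM minus NCM, for 18 of 65 (27.7%). Among all genes 22.4% did so. The SD of the differences measures how they varied between pairs, not how far the media differed.

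Among the sulfotransferases the median stayed between -0.12 and 0.04 at all times. SULT1C2, which sulfates phenols, read -1.17, -0.35 and -0.76 in CM and -1.53, -1.26 and -1.05 in NCM at 16 h. It was higher in 3 of 3 pairs with overlapping groups, at 0.52 (SE 0.22, a fold of 1.44, adjusted p = 0.942). SULT1A1, the main phenol sulfotransferase, had -0.46 (SE 0.24, adjusted p = 0.942), of which experiment 1 had the largest share, with -0.70 in CM and 0.41 in NCM. SULT2A1, which sulfates bile acids and adrenal steroids, had -0.03 (SE 0.20) and an SD over the arrays of 0.24, and 0.29 on its other probe. SULT1E1, the estrogen sulfotransferase, lay between 0.75 and 2.15 on all arrays.

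Of the glutathione transferases, 10 of 12 were above 0 at 16 h with a median of 0.21, and 1 of 12 at 3 h with a median of -0.15. Of all genes 53.0% were above 0 at 16 h and 49.9% at 3 h. At the other times 4 to 6 of the 12 were above 0. On the deposited values 7 of 12 were above 0 at 16 h, with a median of 0.10. MGST1, a membrane-bound glutathione transferase and peroxidase, read -0.85, -0.35 and -0.10 in CM and -1.91, -0.97 and -0.50 in NCM at 16 h. Each pair was higher in CM, while the experiments differed enough for the groups to overlap. The change was 0.69 (SE 0.30, a fold of 1.61, adjusted p = 0.942), and 0.38 (SE 0.17, adjusted p = 0.825) over the late times, higher in 5 of 9 pairs. The 3 other probes of MGST1 read 0.19, -0.40 and 0.58 at 16 h.

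GSTT1, which conjugates small halogenated compounds, had the smallest unadjusted p of any member at a single time. At 3 h it read -2.0, -1.18 and -1.53 in CM and -1.32, -0.25 and -0.63 in NCM. The pair differences were alike (SD 0.14) and the groups overlapped. The change was -0.84 (SE 0.24, a fold of 0.56, unadjusted p = 0.00257 and adjusted p = 1.00 by limma). The same probe read -0.07 at 6 h and 0.18 at 16 h, and the other GSTT1 probe read 0.12 at 3 h. The change at 16 h minus that at 3 h was 1.01 (SE 0.34, adjusted p = 0.998).

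GSTM2, of the mu class, was lower in CM at 30 min, at -0.75, -1.63 and -0.78 against -0.11, -0.36 and -0.65, without overlap. The change was -0.68 (SE 0.25, adjusted p = 0.997), its other probe read -0.17, and at 16 h GSTM2 was at 0.32 (SE 0.25). GSTA2, of the alpha class, was lower at 1 h, at -2.54, -1.74 and -1.49 against -1.01, -1.23 and -1.41, with a change of -0.71 (SE 0.33, adjusted p = 0.977). GSTA3 had -0.55 (SE 0.24, adjusted p = 0.999) at 6 h, lower in 3 of 3 pairs. GSTO1, of the omega class, had -0.39 (SE 0.23) at 30 min, from pair differences of -0.04, -1.09 and -0.04, and -0.04 without replicate 2. GSTK1, a mitochondrial and peroxisomal enzyme, had -0.65 (SE 0.29, adjusted p = 0.972) at T0, where its pairs differed by 0.09, -1.81 and -0.24, so that experiment 2 gave nearly all of it. GSTA1 and GSTP1 had 0.22 and 0.21 at 16 h (SE 0.26 each), and the level of GSTP1, like that of CYP7B1, varied widely between pairs, with an SD of 0.99 over the arrays. The arylamine acetyltransferases NAT1 and NAT2 had 0.06 (SE 0.26) and -0.41 (SE 0.48) at 16 h.

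**Figure D5:**
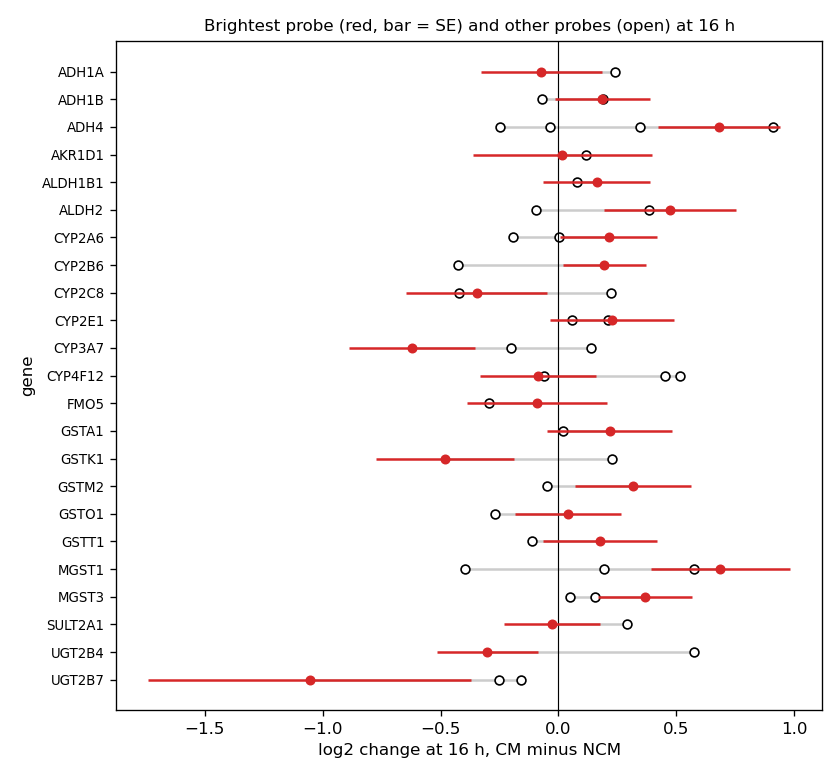
Log2 change at 16 h (horizontal axis) of the brightest probe (red, bar is 1 SE) and of the other probes (open circles) of the 23 members with more than 1 probe. All probes of a gene fall on one side of 0 for 7 of the 23, and ADH4 has the widest range, 1.16.

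Agreement between the probes of a gene was limited throughout. Of 23 members with several probes, 61 in all, those with all probes on one side of 0 numbered 7 at 16 h and between 8 and 12 at the other times. How many would do so with unrelated probes, or among all genes, was not counted, so these counts do not show that the probes agreed. The median range between the probes of a gene was 0.364 at 16 h, above the median size of a member's change there, 0.211. Near-identical relatives such as CYP2B6 and CYP2B7P, ADH1A and ADH1B, GSTA1 to GSTA3, AKR1C3 and AKR1C4, or the UGT2B genes may share probe signal, and this was not tested, since probe sequences were not used here.

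Genes that work with these enzymes were described in the same way. Of 18 listed regulators 5 were measured, of 34 other enzymes and partners 20 and of 12 transporters 6, and 0 of them passed the test at any time or over the late times. Their medians at 16 h were -0.17, -0.03 and -0.01. Over the late times NQO1, a quinone reductase, had -0.45 (SE 0.19, adjusted p = 0.825), lower in 8 of 9 pairs, and PAPSS2, which makes the sulfate donor of the sulfotransferases, had 0.33 (SE 0.16, adjusted p = 0.827). ABCC3, an exporter of glucuronides, had 0.59 at 3 h (SE 0.22, adjusted p = 1.00), higher in 3 of 3 pairs. Larger values occurred in these lists, also at T0, the starting time. The highest of a transporter was 0.85 at T0, and the other enzymes and partners reached 0.77 at T0 and -0.93 at 6 h.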

How the data were processed

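The authors deposited intensity values on a linear scale, 1 for each probe of each array, scaled so that array means are close to 1. How they were scanned, background-corrected and scaled, and on which array type, is not given here by any source. At most 2.12% of an array's values were below 0.

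After quantile normalization a floor of 0.0813, the 1st percentile, was applied before log2. R 4.3.3 with limma 3.58.1 fitted a term for each pair and a CM effect for each time to all 42 arrays (14 residual degrees of freedom, prior SD 0.309 on 6.26 prior degrees of freedom), with two-sided moderated tests. The 95% intervals rest on the same spread. Pairs come from the labels, and the deviations of paired arrays correlated at 0.308 to 0.754 in 21 of 21 pairs. NCM over time was an F test on 21 arrays without pairs. No member's probe was among the 36 with values copied from another probe.

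Genes were named by the array annotation, and 65 of 65 members matched GRCh38.p14 by Entrez ID. The named genes were, where measured, the 3 with the smallest unadjusted p at each time among those with all pairs in 1 direction (8 of 9 for the late mean) and 43 fixed genes, 25 of them measured. Genes named outside that rule (those with p under 0.05 or without overlap, UGT2B4, UGT2B10, AKR1D1, the neighbours by correlation and genes of the other lists) were chosen after their values were seen. The members and lists were chosen with earlier results of these data known. Alternatives covered normalization, floor, dim probes, pairing, spread, probe choice, neighbouring probe numbers (taken as places on 36 grids of 16 by 24, an assumption), copied values and each replicate left out. The fit was tested on simulated data with noise drawn independently for each probe. That test does not cover the correlation between probes described above. Python 3.11.15 with matplotlib 3.10.9 and Biopython 1.88 drew plots and aligned promoters.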

Additional observations from a re-analysis of the deposited data

How the results depend on the processing

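The count of members past the threshold was 0 under each of the 201 combinations of result and alternative that were run, those without a replicate included. The pairing changed no call: with no replicate block, 0 members passed at each time. The median over all members moved by more than the spread of its pairs in some settings. On the values as deposited it was -0.15 at 6 h and -0.044 at 16 h. With median centring it was -0.046 at 15 min, -0.12 at 30 min and 0.041 at 16 h, and with neighbour centring 0.049 at 16 h. Without 1 replicate it ranged from -0.053 to 0.056 at 15 min and from 0.066 to 0.19 at 16 h.

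Among the named genes 23 values turned sign, all at 16 h and none of them called, and the cause was not tested. That all were at 16 h depends in part on which values were checked. The fixed genes were checked at 16 h, with a few over the late times. At the other single times only genes with all pairs in 1 direction were checked, and leaving out a replicate could not turn their sign. On the values as deposited CYP27A1 was -0.15, GSTA1 -0.11, NAT1 -0.33 and SULT2A1 0.037. With median centring CYP27A1 was -0.064, GSTA1 -0.024, NAT1 -0.25 and SULT2A1 0.12. With neighbour centring CYP27A1 was -0.15, SULT2A1 0.0499 and CYP1A1 0.049, and with probes averaged CYP2B6 was -0.11 and SULT2A1 0.13. Without 1 replicate, NAT1 ranged from -0.14 to 0.43, ADH1B from -0.0095 to 0.36, CYP1A1 from -0.45 to 0.34 and FMO5 from -0.39 to 0.30. GSTP1 then ranged from -0.10 to 0.38, SULT2A1 from -0.11 to 0.086, GSTA2 from -0.44 to 0.19 and POR from -0.61 to 0.12. UGT2B7 at 16 h was -1.75 without replicate 3, -0.72 without replicate 1 and -0.70 without replicate 2. The number of arrays and the unknown background limit what dim probes such as that of POR can show.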
